A study of Rattus norvegicus with 9 samples.

Results

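The semaphorins, ephrins, slits and netrins, together with their plexin, neuropilin, Eph, Robo and Unc5 receptors, were taken from the gene count table by their symbols. The symbols matched 68 of the 35362 genes in the table, 35 of them ligands and 33 receptors. The study compared adipose-derived mesenchymal stem cells of male Sprague Dawley rats, 6 weeks old, from 3 fat depots. SASCs came from subcutaneous fat of the groin, PASCs from the perirenal fat around the kidney and EASCs from the epididymal fat at the testis, with 3 RNA-seq samples in each group. The labels give no treatment or genetic change for any group, and all 9 samples were cells at passage 3, obtained by collagenase digestion and plating and grown in medium with fetal serum, so each is a plated population and not a clone. No source used here ties the 3 samples of a depot to separate rats. The p-values therefore measure only how far these samples spread, which may be technical.

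Guidance cues were first described for growing axons, which they attract or repel, and they also steer blood vessels, migrating mesenchymal cells and tissue boundaries. Semaphorins signal through plexins, the secreted class 3 members usually together with neuropilins, whereas membrane-bound ephrins signal to Eph receptor tyrosine kinases on neighbouring cells and can signal back into their own cell. Secreted slits bind Robo receptors and commonly repel, and netrins attract through Dcc or neogenin and repel through Unc5 receptors.

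Total counts ranged from 17591916 to 30299032 per sample, and ribosomal RNA genes took 10.4% to 40.3% of them, with the SASC samples at 10.4% to 15.5%, the PASC samples at 22.4% to 32.9% and the EASC samples at 15.9% to 40.3%. Levels are given as CPM, the count per 1000000 counts of a library whose size was scaled by the trimmed mean of M values (TMM), and levels of different genes are compared only as FPKM, the CPM divided by gene length in kilobases. All 9 mesenchymal stem cell markers were detected in every sample, and their summed FPKM was 3046 to 3178 for SASCs, 4461 to 5263 for PASCs and 5037 to 5487 for EASCs. Within that list Pdgfra was highest in SASCs, at mean levels of 214.8, 38.7 and 32.7 FPKM in SASCs, PASCs and EASCs, and Itgb1 was highest in EASCs, at 277.3, 481.1 and 782.7. Because these are bulk samples, fewer cells of a type and less RNA per cell cannot be told apart. Markers of other cell types differed between the groups: the summed FPKM of 7 endothelial markers was 16.4 to 16.9 for SASCs, 3.29 to 4.22 for PASCs and 11.6 to 12.7 for EASCs. For 7 smooth muscle and pericyte markers the sums were 125.5 to 136.4, 2396 to 2671 and 5153 to 5501, for 8 mesothelial markers 8.13 to 8.53, 36.8 to 38.2 and 45.3 to 50.4, and for 6 macrophage markers (1 of the 7 listed was not found) 22.4 to 24.5, 32.7 to 33.3 and 52.8 to 53.3. The smooth muscle and pericyte sum was mostly Tagln and Acta2, and Rgs5 and Notch3 were highest in SASCs, at mean levels of 2.29, 0.14 and 0.31 FPKM and of 6.57, 0.61 and 3.08 FPKM in SASCs, PASCs and EASCs. The Schwann cell markers given here had no common order, with S100b at mean levels of 18.6, 4.34 and 0.92 FPKM in SASCs, PASCs and EASCs, Ngfr at 0.07, 0.54 and 0.28 and Erbb3 at 0.11, 0.10 and 0.15, and Sox10 stayed at 0 to 3 counts. In the mesothelial list Krt18 had 0 counts in SASCs and Krt19 had 0 counts in PASCs. Upk1b and Upk3b of that list were highest in PASCs, at mean levels of 0.66, 2.1 and 1.07 FPKM and of 0.03, 2.01 and 1.94 FPKM in SASCs, PASCs and EASCs. The part of such cells in the results below was not tested.

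Slit3 was the most abundant guidance transcript of SASCs and held 27.4% of the summed FPKM of all 68 genes there, against 11.9% in PASCs and 10.5% in EASCs. It measured 114 ± 4.23, 39.7 ± 3.34 and 42.2 ± 1.22 FPKM in SASCs, PASCs and EASCs (mean ± SD, n = 3 each). In PASCs and EASCs the highest level belonged instead to Sema3c, a secreted semaphorin, at 51.1 ± 2.76, 46.95 ± 2.62 and 61.7 ± 1.45 FPKM in the same order of groups. Among receptors Plxnb2, a plexin for class 4 semaphorins, led in SASCs, and Unc5b, a netrin receptor, led in PASCs and EASCs. Plxnb2 measured 33.04 ± 1.32, 32.1 ± 1.10 and 37.7 ± 1.88 FPKM and Unc5b 18.2 ± 1.09, 43.3 ± 2.54 and 52.2 ± 3.49 FPKM. The sum over the 68 genes was 416.3 ± 6.09 FPKM in SASCs, 334.2 ± 12.2 in PASCs and 402.1 ± 13.9 in EASCs, and the genes took 0.406%, 0.271% and 0.305% of the counts left after removal of ribosomal RNA.

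**Figure D1:**
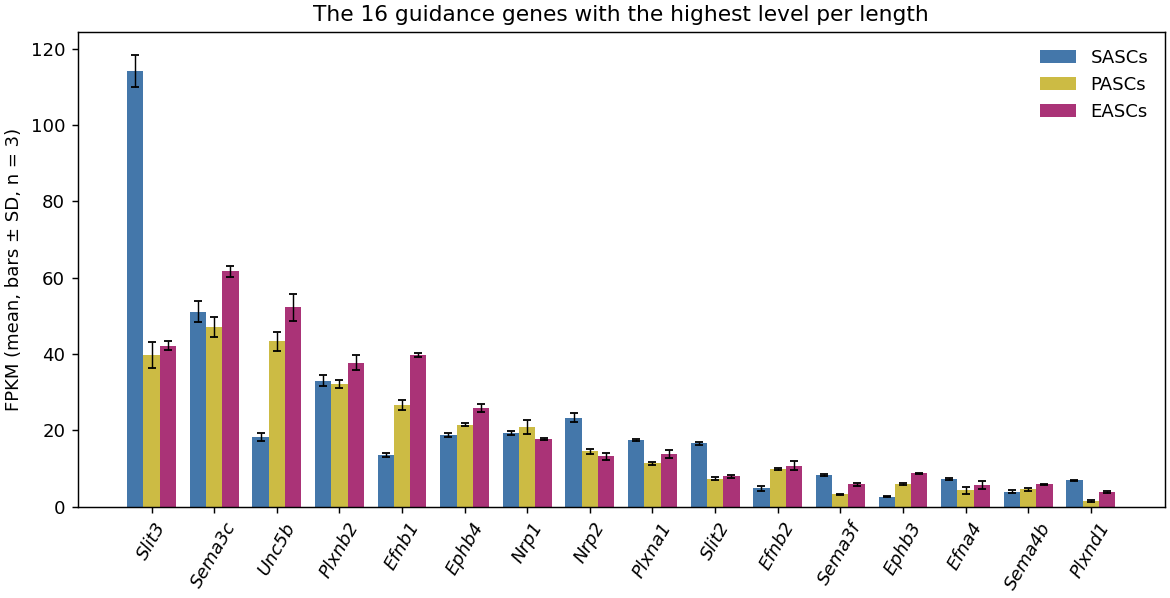
Mean level per length (FPKM, linear axis) of the 16 guidance genes with the highest mean over all samples, with SD bars over the 3 samples of each group. Slit3 in SASCs stands at 114.2 FPKM, above every other bar, and Unc5b and Efnb1 are lowest in SASCs.

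The 3 groups were compared with edgeR's quasi-likelihood test, with p-values adjusted by the Benjamini-Hochberg method over the 14770 genes that passed a filter on low counts, and a gene was called when it differed more than 2-fold with an adjusted p under 0.05. Of the 68 guidance genes, 54 passed the filter. In EASCs 14 of these were higher and 12 lower than in SASCs, or 25.9% and 22.2%, where 13.6% of all tested genes were called higher and 14.2% lower. In PASCs 11 were higher and 18 lower than in SASCs, or 20.4% and 33.3%, against 12% and 14.9% of all tested genes. These comparisons share the SASC samples. In EASCs against PASCs 9 were higher and 1 was lower, or 16.7% and 1.85%, against 5.19% and 2.2% of all tested genes. The median log2 fold change of the 54 genes was -0.00, -0.25 and 0.41 in the same order, against 0.01, -0.01 and -0.01 over all tested genes.

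Total counts without TMM scaling, named below as without TMM, moved the median of all genes to -0.39 in EASCs and -0.33 in PASCs. On that scale the split against SASCs became 10 higher and 15 lower in EASCs and 6 higher and 24 lower in PASCs. With the ribosomal RNA genes also taken out of the totals, the medians were -0.12 and -0.08 and the splits 11 higher and 12 lower in EASCs and 9 higher and 19 lower in PASCs. That scaling ended the EASC calls of Epha1 (0.89), Plxnc1 (0.90) and Sema4a (0.88) and the PASC calls of Ntn1 (0.94) and Efnb2 (0.99), and called Epha4 in PASCs (-1.03).

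**Figure D2:**
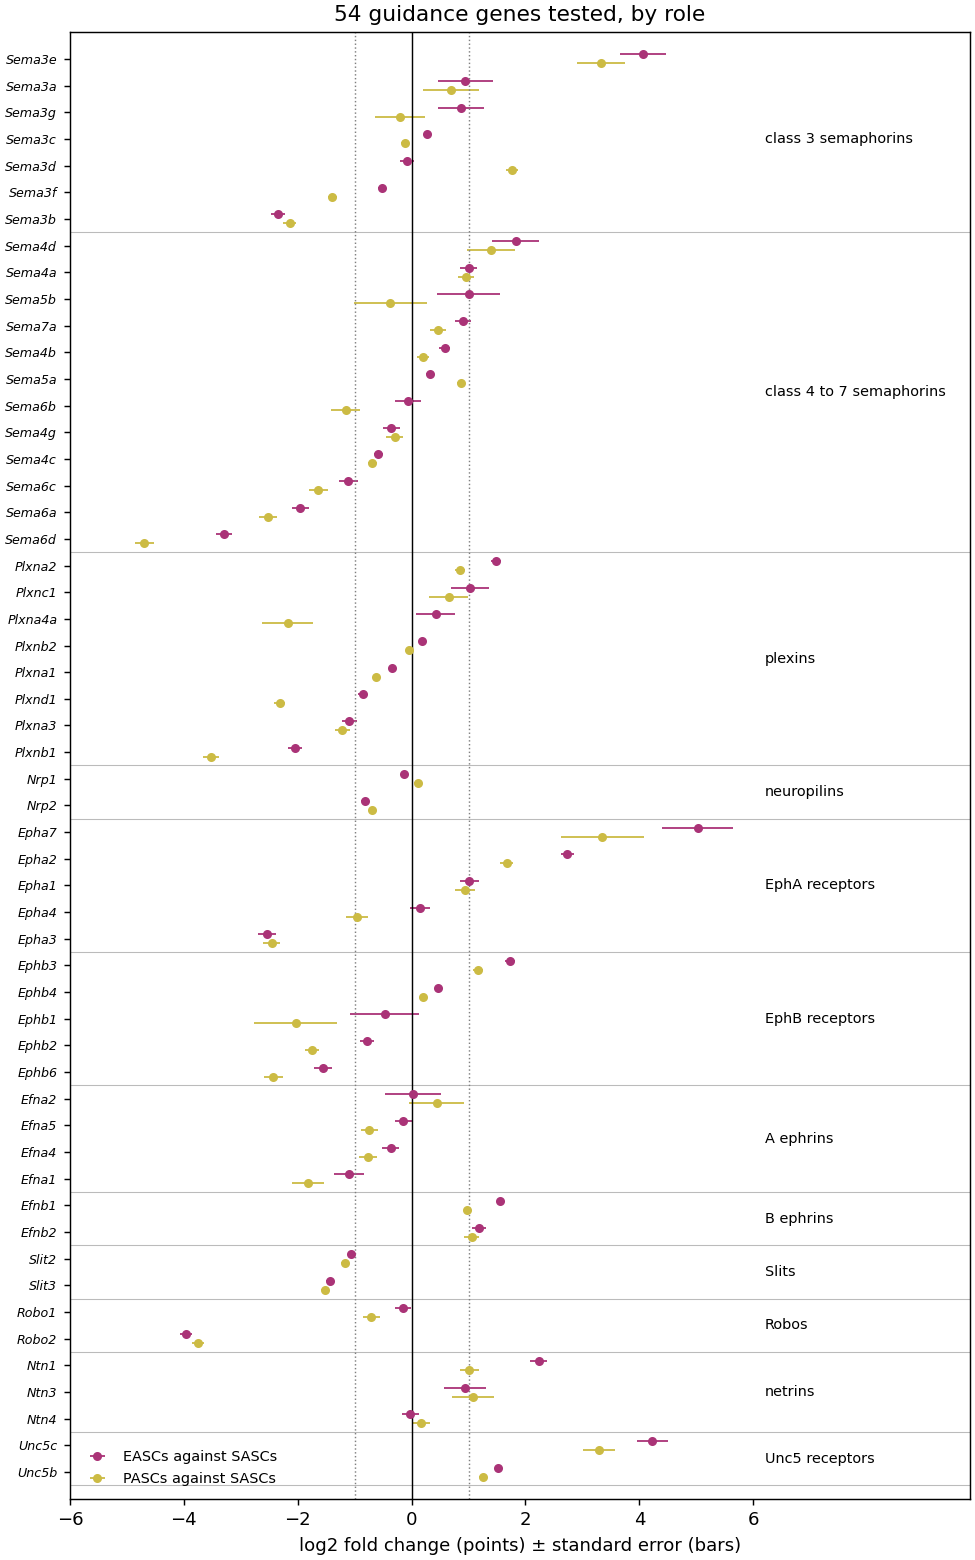
Log2 fold changes against SASCs of the 54 tested guidance genes, in EASCs and in PASCs, ordered by role, with standard errors as bars and dotted lines at a 2-fold difference. Robo2 and Sema6d lie farthest to the left and Epha7, Unc5c and Sema3e farthest to the right in both comparisons.

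The sequence just upstream of the start site is shown for the 4 members with the largest EASC differences from SASCs in either direction that have an entry in the RefSeq promoter table, build GRCr8. Robo2 lies at chr11:26526413-26526662 on the minus strand and Sema6d at chr3:132337106-132337355 on the plus strand, and both were lower in EASCs and PASCs. Sema3e lies at chr4:21510375-21510624 on the minus strand and Epha7 at chr5:47771643-47771892 on the plus strand, and both were higher. Each run holds the 250 bases before the start, read 5′ to 3′ in the direction of the gene, and capitals mark a promoter motif on either strand. The motifs searched were the GC box with the letters GGGCGG, the CCAAT box with the letters of its name, and the TATA box with the letters TATAAA.
Robo2: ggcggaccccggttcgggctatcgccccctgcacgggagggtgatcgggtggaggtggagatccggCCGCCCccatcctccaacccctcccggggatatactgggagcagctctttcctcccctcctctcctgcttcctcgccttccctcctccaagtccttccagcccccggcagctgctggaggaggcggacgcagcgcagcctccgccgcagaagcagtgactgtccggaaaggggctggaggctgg
Sema6d: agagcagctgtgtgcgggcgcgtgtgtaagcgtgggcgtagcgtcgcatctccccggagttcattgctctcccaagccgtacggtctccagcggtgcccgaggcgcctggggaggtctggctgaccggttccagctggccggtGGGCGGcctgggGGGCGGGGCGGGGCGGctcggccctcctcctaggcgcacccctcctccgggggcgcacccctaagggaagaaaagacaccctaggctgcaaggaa
Sema3e: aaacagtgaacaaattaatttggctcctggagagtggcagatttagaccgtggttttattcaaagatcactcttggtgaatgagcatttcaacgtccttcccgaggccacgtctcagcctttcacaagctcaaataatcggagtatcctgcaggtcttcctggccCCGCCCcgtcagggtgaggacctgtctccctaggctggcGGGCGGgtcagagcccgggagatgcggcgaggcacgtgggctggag
Epha7: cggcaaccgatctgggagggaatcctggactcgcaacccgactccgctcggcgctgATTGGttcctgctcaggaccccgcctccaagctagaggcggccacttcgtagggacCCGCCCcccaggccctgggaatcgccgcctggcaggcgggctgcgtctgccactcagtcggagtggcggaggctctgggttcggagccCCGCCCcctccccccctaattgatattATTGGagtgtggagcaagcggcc
All 4 held at least 1 GC box, 3 of the 4 GC boxes of Sema6d overlapped by 1 base, and the CCAAT box was found in Epha7. Of 52 members with an entry, 57.7% held a GC box, against 30.5% of all 33465 promoters in the table. The members were limited to symbols with a single entry. The set of all promoters was not, and it was not limited to genes tested here, so the sets compared are unlike. The shares with a CCAAT box were 32.7% and 34.0%, and a TATA box was found in 0 of 52 against 12.9% of all. The median number of CpG dinucleotides in the 250 bases was 14 for the members and 5 for all promoters, 17 for the 10 matched members called lower in EASCs and 15 for the 11 called higher. A match is a run of letters and not a shown binding site.

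Both expressed slits, Slit3 and Slit2, were lower in the visceral cells. Slit3 read 998, 1056 and 1071 CPM in SASCs, 352, 338 and 397 CPM in PASCs and 382, 376 and 397 CPM in EASCs. The 3 SASC samples lay above the 6 visceral samples with no overlap, and the visceral groups overlapped each other. EASCs were 2.71-fold lower (log2 fold change -1.44, SE 0.06, edgeR adjusted p = 8.95e-18) and PASCs were 2.88-fold lower (log2 fold change -1.52, SE 0.06, edgeR adjusted p = 2.58e-18). Slit2, made as a large protein that is cut into fragments, read 122, 119 and 116 CPM in SASCs, 52.3, 49.6 and 56.6 CPM in PASCs and 56.5, 54.6 and 60.4 CPM in EASCs. Its SASC samples again lay above all others, with a log2 fold change of -1.06, SE 0.06, edgeR adjusted p = 9.17e-15 in EASCs and a log2 fold change of -1.18, SE 0.06, edgeR adjusted p = 1.1e-15 in PASCs.

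Robo2, the slit receptor with the highest level in SASCs, showed the largest fall of any called member in EASCs, and in PASCs only Sema6d fell further. It read 74.8, 66.4 and 81.6 CPM in SASCs, 5.20, 4.93 and 6.62 CPM in PASCs and 4.02, 5.11 and 5.14 CPM in EASCs. No visceral sample came near the SASC range. EASCs were 15.6-fold lower (log2 fold change -3.96, SE 0.11, edgeR adjusted p = 6.61e-22), and PASCs were 13.5-fold lower (log2 fold change -3.75, SE 0.11, edgeR adjusted p = 1.64e-21). Robo1 is a neighbour of Robo2, 917816 bases away on chromosome 11 at positions taken as rn6. It had mean levels of 1.05 ± 0.0617, 0.643 ± 0.0882 and 0.935 ± 0.129 FPKM (SD, n = 3) in SASCs, PASCs and EASCs. The Robo1 samples of EASCs overlapped those of SASCs, and its log2 fold changes, -0.16 in EASCs and -0.71 in PASCs against SASCs, did not pass the fold threshold. Without TMM scaling Robo1 passed it in PASCs at -1.03. Summed over each family, slits stood at 130.7 ± 3.86 FPKM in SASCs, 47.1 ± 3.83 in PASCs and 50.1 ± 1.62 in EASCs, and Robos at 8.36 ± 0.75, 1.19 ± 0.17 and 1.41 ± 0.06.

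Netrin genes and their Unc5 receptors, where called, were higher in visceral cells. Ntn1, the secreted netrin best known from the developing spinal cord, read 2.36, 2.84 and 2.98 CPM in SASCs, 6.04, 4.90 and 5.45 CPM in PASCs and 11.1, 12.9 and 14.2 CPM in EASCs. The 3 groups did not overlap, with SASCs lowest and EASCs highest. EASCs were 4.69-fold higher (log2 fold change 2.23, SE 0.15, edgeR adjusted p = 4.75e-13), and PASCs were 2.02-fold higher (log2 fold change 1.01, SE 0.16, edgeR adjusted p = 4.69e-06). The PASC value sat on the fold threshold and fell below it without SASC replicate 1 (log2 fold change 0.91), without PASC replicate 1 (0.93), with DESeq2 (1.00, just under the threshold) and without TMM (0.68). Ntn4, a basement membrane netrin, read 6.08, 5.52 and 7.52 CPM in SASCs, 6.89, 7.92 and 6.51 CPM in PASCs and 5.49, 6.49 and 6.75 CPM in EASCs, with all groups overlapping and no call. Ntn3 was called in PASCs at a log2 fold change of 1.07, SE 0.37, edgeR adjusted p = 0.0118, a call lost without PASC replicate 3 (0.61) or TMM (0.77), and in EASCs it was called only without EASC replicate 2 (1.08).

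Unc5b and Unc5c, netrin receptors with a death domain, were higher in both visceral groups. Unc5b read 115, 102 and 106 CPM in SASCs, 251, 244 and 273 CPM in PASCs and 291, 303 and 331 CPM in EASCs. Its lowest PASC sample exceeded every SASC sample. EASCs were 2.87-fold higher (log2 fold change 1.52, SE 0.06, edgeR adjusted p = 4.69e-18) and PASCs were 2.38-fold higher (log2 fold change 1.25, SE 0.06, edgeR adjusted p = 3.75e-16), a PASC call lost without TMM scaling (0.93). Unc5c was rare, with 7 to 10 counts per SASC sample, 70 to 101 per PASC sample and 142 to 169 per EASC sample, and read 0.243, 0.424 and 0.391 CPM in SASCs, 2.68, 3.78 and 3.87 CPM in PASCs and 7.08, 6.24 and 6.35 CPM in EASCs. The groups did not overlap. In EASCs it was 18.8-fold higher (log2 fold change 4.23, SE 0.27, edgeR adjusted p = 8.22e-14), and the ratio of summed counts had an exact 95% interval of 12.8 to 29.8, for counting error only. PASCs were 9.79-fold higher (log2 fold change 3.29, SE 0.29, edgeR adjusted p = 6.95e-11), with an interval of 6.55 to 15.6. Of the attractive netrin receptors, Dcc did not pass the filter and neogenin (Neo1) stood at 87.8 ± 4.77, 46.0 ± 1.36 and 60.8 ± 3.69 CPM in SASCs, PASCs and EASCs, below the fold threshold in both (log2 fold change -0.53, SE 0.06, edgeR adjusted p = 2.01e-08 in EASCs and log2 fold change -0.93, SE 0.06, edgeR adjusted p = 3.4e-13 in PASCs). Ntn1, Unc5b and Unc5c moved in the same order of groups as the smooth muscle, mesothelial and macrophage marker sums, though not every smooth muscle or mesothelial marker had that order.

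**Figure D3:**
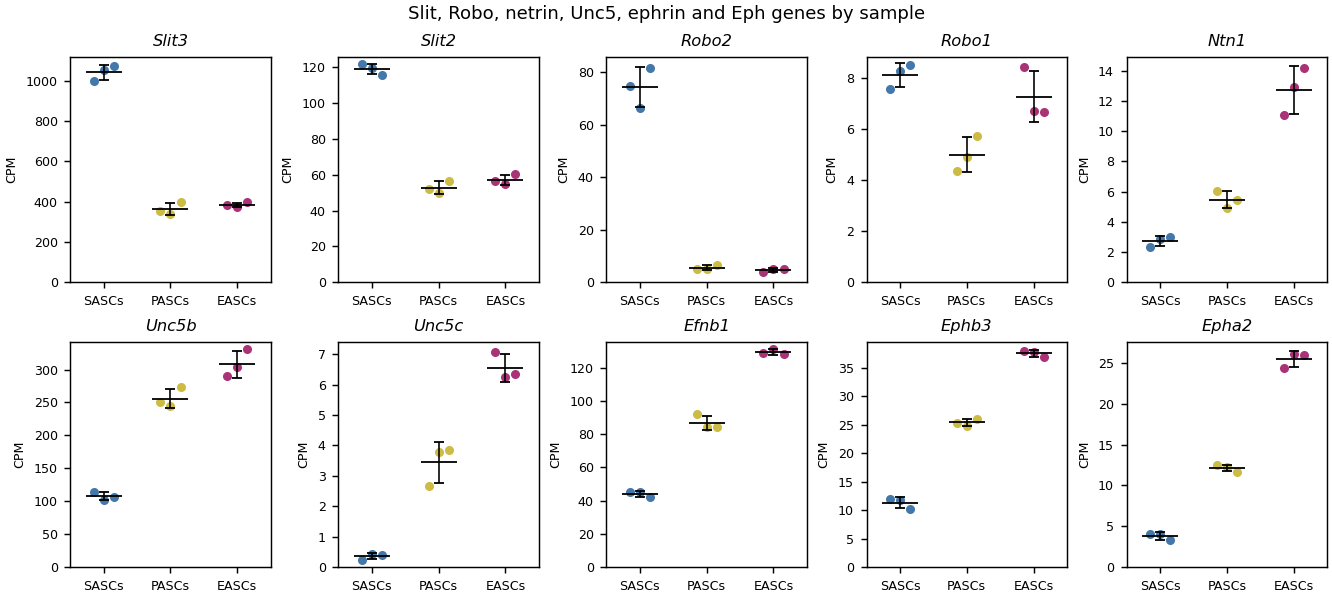
CPM of 10 slit, Robo, netrin, Unc5, ephrin and Eph genes in each of the 9 samples (points), with the mean and SD of each group, on linear axes that start at 0. Slit3, Slit2 and Robo2 are highest in SASCs, whereas Ntn1, Unc5b, Unc5c, Efnb1, Ephb3 and Epha2 increase in the order SASCs, PASCs and EASCs.

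Of the ephrin-B ligands, transmembrane proteins that can signal in both directions, Efnb1 and Efnb2 were called higher in EASCs and Efnb2 in PASCs, and Efnb3, with 0 to 4 counts per sample, was not tested. Efnb1 read 45.02, 45.2 and 42.03 CPM in SASCs, 91.8, 84.4 and 84.04 CPM in PASCs and 129, 131 and 128 CPM in EASCs, and the 3 groups were separate. EASCs were 2.93-fold higher (log2 fold change 1.55, SE 0.06, edgeR adjusted p = 7.86e-19), while the PASC difference stayed just under 2-fold at a log2 fold change of 0.98, SE 0.06, edgeR adjusted p = 3.1e-14. Efnb2, the artery-type ephrin, was at 4.75 ± 0.692, 9.84 ± 0.389 and 10.7 ± 1.22 FPKM in SASCs, PASCs and EASCs (mean ± SD, n = 3). It was called higher in EASCs (log2 fold change 1.18, SE 0.13, edgeR adjusted p = 5.46e-09) and in PASCs (log2 fold change 1.05, SE 0.13, edgeR adjusted p = 4.88e-08). Without TMM both calls were lost (0.77 and 0.73), and without SASC replicate 2 the PASC value was 0.96. Ephrin-B ligands together stood at 18.3 ± 0.27 FPKM in SASCs, 36.5 ± 1.20 in PASCs and 50.5 ± 1.10 in EASCs.

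Their EphB receptors split. Ephb3 was called higher in EASCs (log2 fold change 1.73, SE 0.08, edgeR adjusted p = 2.31e-16) and in PASCs (log2 fold change 1.16, SE 0.09, edgeR adjusted p = 2.18e-12), and the PASC call was lost on total counts without TMM (0.84). Ephb6, which lacks kinase activity, was lower, and read 13.1, 15.2 and 13.5 CPM in SASCs, 3.14, 2.88 and 1.54 CPM in PASCs and 5.15, 4.22 and 4.92 CPM in EASCs. SASCs lay above all visceral samples. EASCs were 2.92-fold lower (log2 fold change -1.55, SE 0.16, edgeR adjusted p = 1.55e-09) and PASCs were 5.38-fold lower (log2 fold change -2.43, SE 0.17, edgeR adjusted p = 8.19e-13). Ephb2 was called lower in PASCs (log2 fold change -1.74, SE 0.13, edgeR adjusted p = 1.52e-12), with a log2 fold change of -0.78, SE 0.12, edgeR adjusted p = 1.3e-06 in EASCs, where it passed the fold threshold only without TMM (-1.19). Ephb4, the venous partner of Efnb2 and the most abundant Eph receptor, read 83.9, 84.6 and 80.2 CPM in SASCs, 93.2, 96.9 and 94.7 CPM in PASCs and 109, 118 and 116 CPM in EASCs. Its groups did not overlap, yet the differences were small, with log2 fold changes of 0.46 in EASCs and 0.20 in PASCs, and the PASC value turned to -0.13 without TMM. Ephb1 was rare, and its PASC call (log2 fold change -2.04, SE 0.73, edgeR adjusted p = 0.0156) was lost without PASC replicate 3, where the log2 fold change was -1.60 and the adjusted p of edgeR was 0.0695.

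Among EphA receptors, Epha2, a kinase of epithelia and migrating cells, was higher in both visceral groups and read 4.07, 4.03 and 3.27 CPM in SASCs, 12.5, 12.3 and 11.7 CPM in PASCs and 24.4, 26.1 and 25.9 CPM in EASCs. Each group was separate from the others. EASCs were 6.67-fold higher (log2 fold change 2.74, SE 0.11, edgeR adjusted p = 4.69e-18) and PASCs were 3.18-fold higher (log2 fold change 1.67, SE 0.12, edgeR adjusted p = 8.62e-13). Epha7 was almost undetected in SASCs, where it had 0 to 3 counts per sample, against 9 to 18 in PASCs and 36 to 60 in EASCs. Over the samples it read 0, 0.127 and 0.0488 CPM in SASCs, 0.344, 0.598 and 0.953 CPM in PASCs and 2.51, 1.46 and 1.92 CPM in EASCs, and 3 counts corresponded to 0.104 to 0.159 CPM. Its ratio of summed counts to SASCs was 35.7 in EASCs with an exact 95% interval of 13.6 to 133 and 10.9 in PASCs with an interval of 3.96 to 41.8, for counting error only. The fits gave a log2 fold change of 5.02, SE 0.62, edgeR adjusted p = 6.38e-08 in EASCs and a log2 fold change of 3.35, SE 0.73, edgeR adjusted p = 0.000203 in PASCs. These values moved with single SASC samples, to 4.36 in EASCs and 2.69 in PASCs without SASC replicate 1 and to 6.26 and 4.59 without SASC replicate 2, and stayed called.

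Epha3, in contrast, was lower, and read 12.5, 12.3 and 14.01 CPM in SASCs, 2.14, 2.47 and 2.44 CPM in PASCs and 2.47, 2.19 and 1.97 CPM in EASCs. The SASC samples were far above the rest. EASCs were 5.83-fold lower (log2 fold change -2.54, SE 0.16, edgeR adjusted p = 3.86e-14) and PASCs were 5.50-fold lower (log2 fold change -2.46, SE 0.15, edgeR adjusted p = 7.12e-14). Epha1 was called in EASCs on the threshold (log2 fold change 1.02, SE 0.17, edgeR adjusted p = 8.39e-06), and the call was lost without SASC replicate 2 (0.90), EASC replicate 1 (0.94), EASC replicate 3 (0.94) or TMM (0.60). In PASCs it was called only without SASC replicate 1 (1.07). Its gene model shares 287 bases with Zyx on the opposite strand, which had 2024 to 8039 counts against 64 to 176 for Epha1, and the use of strand in counting is not given in the sources used here, so its values are uncertain. The GPI-anchored ephrin-A ligand Efna1 read 3.69, 4.16 and 2.54 CPM in SASCs, 0.995, 0.822 and 1.17 CPM in PASCs and 2.09, 1.22 and 1.57 CPM in EASCs. Its visceral samples lay below the SASC samples, with a log2 fold change of -1.10, SE 0.26, edgeR adjusted p = 0.000613 in EASCs and a log2 fold change of -1.82, SE 0.28, edgeR adjusted p = 2.37e-06 in PASCs, and the EASC call was lost without SASC replicate 2 (-0.95) or EASC replicate 2 (-0.92). Efna4, the ephrin-A with the highest level, read 8.59, 9.08 and 8.35 CPM in SASCs, 6.31, 4.11 and 4.92 CPM in PASCs and 7.33, 5.27 and 7.61 CPM in EASCs and was not called (-0.37 in EASCs and -0.76 in PASCs), although it passed in PASCs without TMM (-1.08). Likewise Efna5 passed in PASCs only without TMM (-1.06).

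Class 3 semaphorins, the secreted branch, moved in several directions. The abundant Sema3c read 267, 244 and 269 CPM in SASCs, 224, 244 and 248 CPM in PASCs and 309, 322 and 309.9 CPM in EASCs. EASC samples lay above the other 2 groups, but the log2 fold changes were 0.27 in EASCs and -0.12 in PASCs and not called, and the EASC value was -0.12 without TMM. Sema3e, which binds Plxnd1 directly, was rare and read 0.139, 0.127 and 0.293 CPM in SASCs, 1.11, 2.17 and 2.33 CPM in PASCs and 3.39, 2.88 and 2.95 CPM in EASCs. Every visceral sample exceeded every SASC sample. The fits gave a log2 fold change of 4.06, SE 0.40, edgeR adjusted p = 9.1e-10 in EASCs and a log2 fold change of 3.33, SE 0.42, edgeR adjusted p = 9.82e-08 in PASCs. Against 13 counts over the SASC samples, the ratio of summed counts was 17.2 in EASCs with an exact 95% interval of 9.86 to 32.9 and 10.2 in PASCs with an interval of 5.77 to 19.7, for counting error only.

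Sema3b, often described as a growth-restraining semaphorin, was lower and read 30.4, 37.6 and 34.3 CPM in SASCs, 8.76, 7.40 and 6.88 CPM in PASCs and 5.86, 6.04 and 8.23 CPM in EASCs. SASCs stood apart from both visceral groups. EASCs were 5.09-fold lower (log2 fold change -2.35, SE 0.12, edgeR adjusted p = 9.37e-16) and PASCs were 4.41-fold lower (log2 fold change -2.14, SE 0.12, edgeR adjusted p = 5.15e-15). Its neighbour Sema3f lies 76418 bases away on chromosome 8 at positions taken as rn6. Sema3f was called lower in PASCs (log2 fold change -1.39, SE 0.07, edgeR adjusted p = 2.24e-15), with a log2 fold change of -0.52, SE 0.07, edgeR adjusted p = 2.78e-07 in EASCs. Sema3a and Sema3g reached at most 1.42 CPM and were not called. Each passed in EASCs without 1 library, Sema3a without EASC replicate 2 (1.27) and Sema3g without SASC replicate 1 (1.17).

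Of the 4 membrane-bound class 6 semaphorins, 3 were called lower in EASCs and 4 in PASCs, where 14.2% and 14.9% of all tested genes were called lower. Sema6d read 24.96, 23.4 and 24.6 CPM in SASCs, 0.689, 1.08 and 1.06 CPM in PASCs and 2.18, 2.88 and 2.37 CPM in EASCs. The SASC range was far above both visceral ranges, which also did not overlap each other. PASCs were 25.9-fold lower (log2 fold change -4.69, SE 0.16, edgeR adjusted p = 9.54e-20) and EASCs were 9.79-fold lower (log2 fold change -3.29, SE 0.14, edgeR adjusted p = 8.08e-18). Sema6a, a ligand of A-type plexins, read 16.03, 13.4 and 17.2 CPM in SASCs, 2.14, 2.92 and 3.12 CPM in PASCs and 3.98, 3.65 and 4.38 CPM in EASCs. The groups were separate, with PASCs lowest, and PASCs were 5.73-fold lower (log2 fold change -2.52, SE 0.15, edgeR adjusted p = 4.1e-14) and EASCs 3.88-fold lower (log2 fold change -1.96, SE 0.15, edgeR adjusted p = 2.85e-12). Sema6c was also called lower in EASCs (log2 fold change -1.11, SE 0.17, edgeR adjusted p = 1.26e-06) and PASCs (log2 fold change -1.64, SE 0.17, edgeR adjusted p = 3.09e-09). Sema6b, called lower in PASCs, had in EASCs a log2 fold change of -0.06, SE 0.23, edgeR adjusted p = 0.819.

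Of the 8 class 4, 5 and 7 semaphorins tested, 0 were called lower in EASCs and 0 in PASCs, where 14.2% and 14.9% of all tested genes were called lower, and Sema4c was called lower in PASCs without TMM (-1.02). Sema4d, a Plxnb1 ligand known from immune and bone cells, read 0.382, 0.552 and 0.391 CPM in SASCs, 1.53, 0.673 and 1.32 CPM in PASCs and 1.21, 2.03 and 1.48 CPM in EASCs. All visceral samples lay above the SASC samples, with a log2 fold change of 1.83, SE 0.41, edgeR adjusted p = 0.000324 in EASCs and a log2 fold change of 1.40, SE 0.42, edgeR adjusted p = 0.005 in PASCs. Sema4b, the class 4 to 7 member with the highest mean FPKM over all 9 samples, read 14.3, 14.7 and 11.9 CPM in SASCs, 16.3, 14.5 and 16.7 CPM in PASCs and 19.97, 20.7 and 20.9 CPM in EASCs. Its log2 fold changes of 0.58 in EASCs and 0.20 in PASCs were not called, and the PASC value was -0.11 without TMM. Sema4a was called in EASCs at the threshold (log2 fold change 1.01, SE 0.15, edgeR adjusted p = 1.05e-06). This call was lost with DESeq2 (0.99), without TMM (0.63), and without SASC replicate 2 (0.92), SASC replicate 3 (0.90) or EASC replicate 2 (0.93), and a PASC call appeared without SASC replicate 1 (1.19). Sema7a, a GPI-anchored ligand of Plxnc1, reached a log2 fold change of 0.91 in EASCs and passed the fold threshold only without EASC replicate 1 (1.00). Sema5a was not called in either group (0.33 in EASCs and 0.86 in PASCs).

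Of the plexins, Plxnb1 fell most. It read 27.5, 27.7 and 24.8 CPM in SASCs, 2.56, 2.43 and 1.85 CPM in PASCs and 6.53, 5.15 and 7.78 CPM in EASCs. The groups did not overlap, with PASCs lowest. PASCs were 11.5-fold lower (log2 fold change -3.52, SE 0.14, edgeR adjusted p = 5.36e-18) and EASCs were 4.12-fold lower (log2 fold change -2.04, SE 0.12, edgeR adjusted p = 3.76e-14). Plxnb1 shares 676 bases with an uncharacterised gene on the opposite strand that had 4 to 99 counts, against 35 to 791 for Plxnb1. Plxnd1, the receptor of Sema3e, read 47.4, 45.8 and 46.7 CPM in SASCs, 9.60, 7.85 and 10.9 CPM in PASCs and 24.2, 26.02 and 26.97 CPM in EASCs. PASCs were 4.98-fold lower (log2 fold change -2.32, SE 0.09, edgeR adjusted p = 3.97e-18), whereas in EASCs it was below the fold threshold (log2 fold change -0.86, SE 0.08, edgeR adjusted p = 7.77e-10), passing it only without TMM (-1.26). The groups were separate, in the order SASCs, EASCs and PASCs.

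The same order held for the endothelial marker sum, though not for each of its 7 markers. Cdh5 was highest in EASCs, with mean levels of 3.60, 0.44 and 3.82 FPKM in SASCs, PASCs and EASCs, and Tek was lowest in SASCs, at 0.54, 1.74 and 1.70 FPKM. Plxnb2 read 305, 319 and 330.2 CPM in SASCs, 304, 302 and 321 CPM in PASCs and 343, 369 and 378 CPM in EASCs and was not called (0.19 in EASCs and -0.04 in PASCs, the EASC value at -0.20 without TMM). Plxna1, a neuropilin partner, read 156, 156 and 162 CPM in SASCs, 101, 100.0 and 106 CPM in PASCs and 117, 122 and 136 CPM in EASCs and was not called either (-0.34 in EASCs and -0.62 in PASCs). Plxna2 was called higher in EASCs (log2 fold change 1.48, SE 0.08, edgeR adjusted p = 8.51e-15), and Plxna3 lower in EASCs (log2 fold change -1.10, SE 0.13, edgeR adjusted p = 2.66e-08) and PASCs (log2 fold change -1.22, SE 0.13, edgeR adjusted p = 4.53e-09), with the EASC call lost without EASC replicate 2 (-0.95). Plxnc1 was called in EASCs (log2 fold change 1.02, SE 0.33, edgeR adjusted p = 0.00858), but not without TMM (0.66) or without SASC replicate 2 (0.99), SASC replicate 3 (0.98), EASC replicate 1 (0.92) or EASC replicate 2 (0.85).

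Neither neuropilin was called. Nrp1, which also binds vascular endothelial growth factor, read 124, 117 and 118 CPM in SASCs, 121, 125 and 143 CPM in PASCs and 108, 110.2 and 111 CPM in EASCs and overlapped between SASCs and PASCs (-0.13 in EASCs and 0.11 in PASCs, the PASC value at -0.21 without TMM). Nrp2, its paralogue, read 181, 178 and 195 CPM in SASCs, 108, 115 and 120.1 CPM in PASCs and 98.7, 102 and 112 CPM in EASCs. SASC samples were highest without overlap, with log2 fold changes of -0.83 in EASCs and -0.69 in PASCs, under the fold threshold with TMM and past it on total counts without TMM (-1.23 and -1.01).

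The visceral groups were then compared directly. The 10 called members were 6 receptors (Epha2, Epha4, Epha7, Plxna4a, Plxnb1 and Plxnd1) and 4 ligands (Ntn1, Sema3d, Sema6b and Sema6d). Sema3d, a secreted semaphorin, was the one call lower in EASCs and read 5.95, 6.24 and 7.37 CPM in SASCs, 20.6, 23.2 and 22.4 CPM in PASCs and 6.24, 6.16 and 6.04 CPM in EASCs. The PASC samples were alone above 20 CPM, and EASCs overlapped SASCs. EASCs were 3.58-fold lower (log2 fold change -1.84, SE 0.11, edgeR adjusted p = 2.55e-13) than PASCs, and PASCs were 3.40-fold higher (log2 fold change 1.77, SE 0.11, edgeR adjusted p = 7.02e-14) against SASCs. Plxna4a, an A-type plexin, was the mirror image and read 1.08, 1.02 and 1.42 CPM in SASCs, 0.268, 0.149 and 0.371 CPM in PASCs and 1.59, 1.74 and 1.34 CPM in EASCs. PASC samples were lowest, EASC and SASC samples overlapped, and EASCs were 6.05-fold higher (log2 fold change 2.60, SE 0.43, edgeR adjusted p = 2.62e-05).

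Epha4, a receptor that binds both ephrin classes, read 4.49, 4.67 and 5.27 CPM in SASCs, 2.41, 2.13 and 2.91 CPM in PASCs and 4.69, 4.99 and 6.22 CPM in EASCs. PASCs lay below the other groups, which overlapped. EASCs were 2.15-fold higher (log2 fold change 1.10, SE 0.19, edgeR adjusted p = 3.54e-05) than PASCs, a call lost without EASC replicate 3 (0.98), and the PASC value against SASCs was a log2 fold change of -0.96, SE 0.19, edgeR adjusted p = 6.2e-05. That PASC value passed the fold threshold without SASC replicate 1 (-1.01), PASC replicate 3 (-1.08) or TMM (-1.28). Sema6b read 2.71, 2.33 and 3.66 CPM in SASCs, 1.03, 1.38 and 1.48 CPM in PASCs and 2.89, 2.92 and 2.46 CPM in EASCs, with PASCs again lowest and SASCs and EASCs overlapping. EASCs were 2.14-fold higher (log2 fold change 1.10, SE 0.26, edgeR adjusted p = 0.00155) than PASCs, a call lost without PASC replicate 1 (0.95), and PASCs were 2.23-fold lower (log2 fold change -1.16, SE 0.26, edgeR adjusted p = 0.000263) against SASCs, a call lost without SASC replicate 3 (-0.97).

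Of the other called members, Epha2, Ntn1 and Epha7 were intermediate in PASCs, and Plxnb1, Plxnd1 and Sema6d were intermediate in EASCs. Epha2 was 2.1-fold higher (log2 fold change 1.07, SE 0.10, edgeR adjusted p = 9.65e-10) in EASCs than in PASCs, and Ntn1 was 2.33-fold higher (log2 fold change 1.22, SE 0.14, edgeR adjusted p = 7.52e-08). Epha7 was 3.19-fold higher (log2 fold change 1.67, SE 0.43, edgeR adjusted p = 0.00316). Plxnb1, Plxnd1 and Sema6d, whose PASC levels were the lowest, were 2.79-fold higher (log2 fold change 1.48, SE 0.16, edgeR adjusted p = 3.7e-08), 2.75-fold higher (log2 fold change 1.46, SE 0.10, edgeR adjusted p = 1.62e-12) and 2.64-fold higher (log2 fold change 1.40, SE 0.21, edgeR adjusted p = 6.1e-06). Unc5c had a log2 fold change of 0.94 and passed only without PASC replicate 2 (1.02) or PASC replicate 3 (1.02). Ephb2 passed only without EASC replicate 2 (1.05) and Ephb6 only without PASC replicate 1 (1.05). Sema5b had a log2 fold change of 1.37, edgeR adjusted p = 0.0748, and passed only without PASC replicate 1, where it was 2.1, edgeR adjusted p = 0.0385. Sema3g passed only with a filter at 1 CPM (1.07) or a fit of the 2 groups alone (1.07). Plxnd1, Sema6b, Sema6d, Plxnb1, Plxna4a and Epha4 were lowest in PASCs, as the endothelial marker sum was.

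**Figure D4:**
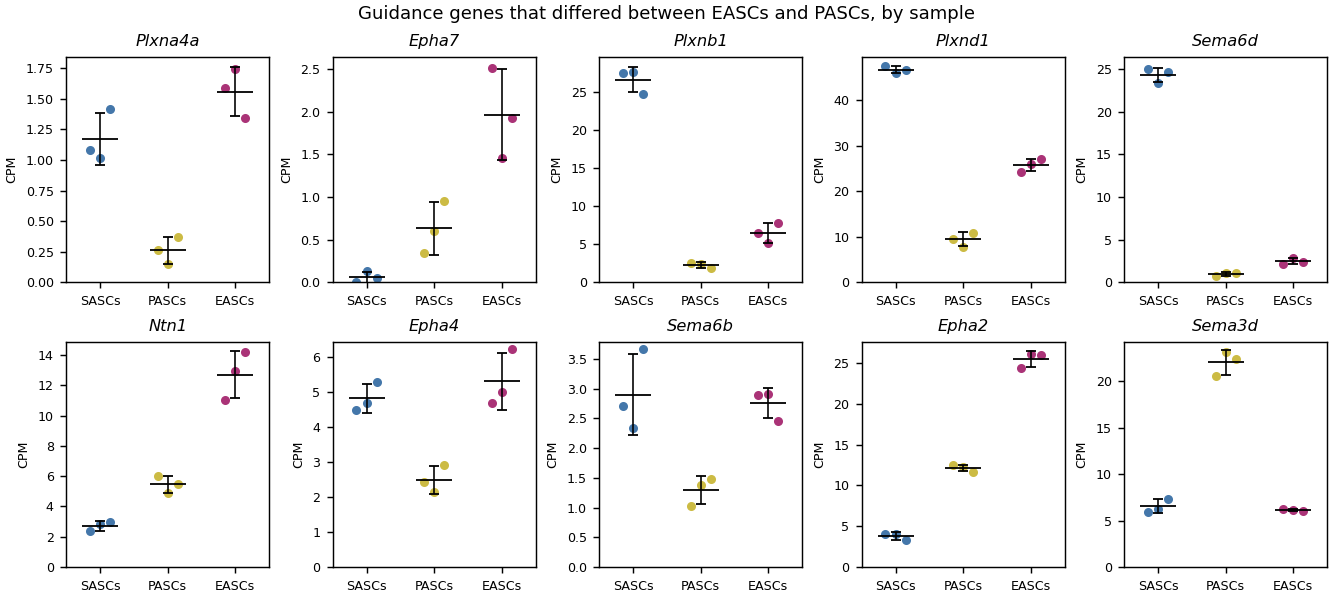
CPM of the 10 guidance genes called between EASCs and PASCs in each of the 9 samples (points), with the mean and SD of each group, on linear axes from 0. In 9 panels the EASC samples lie above the PASC samples, and for Sema3d the PASC samples, at 20.6 to 23.2 CPM, lie above both other groups.

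Outside the ligand and receptor families, 94 coreceptors and effectors of these pathways were listed from general knowledge. The table held 92 of them and 85 were tested. In EASCs 16 were higher and 13 lower than in SASCs, in PASCs 11 higher and 14 lower, and in EASCs against PASCs 10 higher and 1 lower, with median log2 fold changes of 0.01, -0.00 and 0.15. As shares of the 85, these were 18.8% and 15.3% in EASCs against SASCs, where all tested genes had 13.6% and 14.2%. In PASCs against SASCs they were 12.9% and 16.5%, where all tested genes had 12% and 14.9%, and in EASCs against PASCs 11.8% and 1.18%, where all had 5.19% and 2.2%. Srgap1, a GTPase-activating protein that couples Robo receptors to Cdc42, read 46.2, 45.2 and 49.5 CPM in SASCs, 2.41, 2.32 and 2.97 CPM in PASCs and 4.27, 6.16 and 5.01 CPM in EASCs. Its SASC samples were far above the others, as those of Robo2 were, with a log2 fold change of -3.19, SE 0.11, edgeR adjusted p = 1.36e-19 in EASCs and a log2 fold change of -4.21, SE 0.12, edgeR adjusted p = 3.09e-21 in PASCs.

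Dpysl3, a collapsin response mediator protein that binds the cytoskeleton, read 8.73, 7.98 and 8.84 CPM in SASCs, 72.8, 76.5 and 77.9 CPM in PASCs and 116, 133 and 135 CPM in EASCs. It was higher in EASCs (log2 fold change 3.91, SE 0.08, edgeR adjusted p = 4.94e-25) and PASCs (log2 fold change 3.15, SE 0.08, edgeR adjusted p = 7.63e-23). Mical2, an actin-oxidising enzyme of the family that acts under plexins, read 41.9, 41.1 and 45.6 CPM in SASCs, 176, 186 and 183 CPM in PASCs and 236, 267 and 259 CPM in EASCs. It too was higher in EASCs (log2 fold change 2.57, SE 0.06, edgeR adjusted p = 2.58e-23) and PASCs (log2 fold change 2.09, SE 0.06, edgeR adjusted p = 2.75e-21). Lower in both were Chl1, an adhesion molecule that partners neuropilins, at log2 fold changes of -4.02 in EASCs and -4.33 in PASCs with no visceral sample above 0.203 CPM, and Mmp2, a matrix metalloprotease, at -2.94 and -2.39. Also lower were Kdr, the vascular endothelial growth factor receptor, at -2.26 and -3.45, and Arhgef15, a vascular ephexin, at -1.04 and -3.72, and Kdr is itself one of the 7 endothelial markers.

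The 14 members that did not pass the filter were Efna3, Efnb3, Epha10, Epha5, Epha6, Epha8, Ntn5, Plxnb3, Robo3, Robo4, Sema4f, Slit1, Unc5a and Unc5d. Epha5, Epha6 and Epha8 had 0 counts in all 9 samples. Robo4, the endothelial Robo, had 0 to 2 counts per sample, and Slit1 had 0 to 2. Efna3 reached 23 counts in EASC replicate 3 and 2 in each SASC sample, and Sema4f ranged from 0 to 20. A count of 0 allows up to 3 counts, which is 0.104 to 0.159 CPM at these depths, and this covers counting error only.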

How the data were processed

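RNA of SASCs, PASCs and EASCs at passage 3 was sequenced, 3 samples per depot as the titles in the labels give them. Per the methods of the study, the authors trimmed paired-end reads with cutadapt and the FastX-Toolkit and aligned them with TopHat. The labels list rn5 as the genome build and the methods rn6. The positions of the deposited table look like those of rn6 and are taken as rn6 here, but they were not checked against an assembly. The read counter and its use of strand are not given in the sources used here. The deposited values are raw counts per gene made by the authors, with a gene length in bases, whose origin is not given, and the methods speak of 6 wells per group where 3 samples are analysed here.

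Genes with low counts were removed with filterByExpr, and 1 edgeR 4.0.16 quasi-likelihood model (R 4.3.3, TMM) of the 3 groups was fitted to 14770 genes over 9 samples, without a replicate block. In the direction EASCs against SASCs the script recovered 190 of 200 genes changed in simulated counts for 14770 genes, with 2 false calls. In the real counts 2002 genes were called higher and 2103 lower in that direction. Recovery of genes near the 2-fold threshold, or with that many genes changed, was not tested separately. Tested alternatives were DESeq2 1.42.0, other scalings, filters and thresholds, the 2 groups alone, a block and each sample left out. FPKM was computed from CPM and the length of the gene. The SE of a log2 fold change was derived as its absolute value divided by the square root of the edgeR F statistic. Named with each sample's value were, in each comparison, the 12 called members with the largest change that reached 1 CPM in the higher group, the 10 highest members per length and the highest member of each role. Of other pathway genes, the 5 called with the largest change in each comparison with SASCs were named. Members called in opposite directions in EASCs and PASCs would also have been named, and there were none. The members and lists were chosen with earlier results of these data known. An exact permutation test of 3 samples against 3 cannot go below p = 0.1, so single genes rest on the model. Samples of a depot were not the same library counted again, as chi-square over degrees of freedom was 4.41 to 16.8 between them. Promoter sequences came from RefSeq, build GRCr8, matched by symbol for 52 of 68 members, and were not mixed with rn6 positions. The summed level of the Schwann cell marker list is not reported here.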

Additional observations from a re-analysis of the deposited data

Results flagged for a closer look

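For 10 guidance genes the difference from SASCs was not the same in EASCs and PASCs by more than 2-fold, by the direct edgeR test of EASCs against PASCs. Of the 54 tested, 16.7% were called higher and 1.85% lower, against 5.19% and 2.2% of all tested genes. At an adjusted p under 0.05 whatever the fold change, 31 members differed. The log2 fold change of EASCs against PASCs was 2.60 for Plxna4a, 1.67 for Epha7, 1.48 for Plxnb1, 1.46 for Plxnd1, 1.40 for Sema6d, 1.22 for Ntn1, 1.10 for Epha4, 1.10 for Sema6b, 1.07 for Epha2 and -1.84 for Sema3d. Plxna4a, Sema6b and Sema3d were called in PASCs against SASCs, at edgeR adjusted p = 9.81e-05, 0.000263 and 7.02e-14, and not in EASCs, at 0.282, 0.819 and 0.594. Epha4 was called against SASCs in neither group, with log2 fold changes of 0.14 in EASCs and -0.96 in PASCs and edgeR adjusted p = 0.472 and 6.2e-05. For the other 6 genes both visceral groups lay on the same side of SASCs, and of these Plxnd1 did not pass the fold threshold in EASCs (-0.86).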

How the results depend on the processing

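Of the 3 counts of called members, those in EASCs against SASCs and in EASCs against PASCs moved by more than 1.5 times with a looser threshold. At an adjusted p under 0.05 whatever the fold change, 41 and 31 of the 54 members were called in place of 26 and 10. Of all 14770 tested genes, 5239 were higher and 5059 lower at that threshold in EASCs against SASCs. In EASCs against PASCs these were 2384 and 2146. At a fold change above 1.5 the EASCs against PASCs count of members was 17. With each sample left out in turn, 22 to 27 members were called in EASCs against SASCs, 28 to 31 in PASCs against SASCs and 9 to 11 in EASCs against PASCs. Same-numbered samples deviated from their group means with correlations of -0.03 to 0.04, so no shared effect of a replicate number was seen. With 3 samples per group this cannot settle whether a number marks a shared rat or batch. The fit with a replicate block again called 26, 29 and 10.

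Among the genes named by rule, a direction turned only where the log2 fold change was not called. Total counts without TMM turned Epha4 to -0.27, Plxnb2 to -0.20 and Sema3c to -0.12 in EASCs against SASCs, and Ephb4 to -0.13, Nrp1 to -0.21, Ntn4 to -0.16 and Sema4b to -0.11 in PASCs against SASCs. With a sample left out, the EASCs against SASCs value ranged from -0.12 to 0.10 for Ntn4, from -0.14 to 0.014 for Sema3d and from -0.20 to 0.12 for Sema6b. The cause of these shifts was not tested. Genes near 3 counts per sample, such as Epha7 in SASCs, are limited by depth.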
